A study of Homo sapiens with 3 samples.

Results

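The enzymes that build purine and pyrimidine nucleotides were read out as 36 genes in H82R cells, which the labels trace to H82, an established human small cell lung cancer line. The genes were chosen by name, as the enzymes of purine and pyrimidine synthesis with the salvage and deoxynucleotide steps beside them, and all 36 were among the 27574 gene names of the count table. RNA sequencing counts were available for 3 libraries, called replicates 1, 2 and 3, which form 1 group: H82R cells of lung origin that had received etoposide, a poison of type II topoisomerases, together with cisplatin, which crosslinks DNA. The growth protocol describes cell lines kept in RPMI1640 with serum, whereas the treatment label speaks of a tumor, and neither dose nor duration is given. No untreated or parental sample was analysed here, so the values are levels and their spread between libraries, not a response to the drugs. Whether the replicates were separate cultures is not stated, so p-values describe the variation among these 3 libraries alone, part or all of which may be technical.

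Purine nucleotides are assembled stepwise on an activated ribose, phosphoribosyl pyrophosphate (PRPP), to give IMP, from which AMP and GMP are made. Pyrimidines are built as a free ring that is then joined to PRPP to give UMP, the source of CTP and the thymidine nucleotides. Salvage enzymes recycle bases and nucleosides instead, and ribonucleotide reductase turns ribonucleotides into the deoxynucleotides used for DNA, which dividing cells need in quantity.

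The promoter stretches below are shown for 6 genes: PPAT and PAICS, which code for the first and for middle steps of purine synthesis and are transcribed away from each other from 1 short interval, GART and RRM2, the members with 3 CCAAT boxes each, RRM1, the partner subunit of RRM2, and ATIC, the most abundant member with an E-box before its start. All are read 5′ to 3′ on the gene's own strand from RefSeq, build GRCh38.p14, and end at the base before the RefSeq transcript start. Capitals mark CCAAT boxes (CCAAT, bound by NF-Y) and E-boxes (CACGTG), and in the PPAT line GC boxes (GGGCGG), each on either strand. The PPAT line is the 125 bases at chr4:56435616-56435740 (minus strand) between the starts of PPAT and PAICS, the GART line 140 bases at chr21:33542893-33543032 (minus strand), the ATIC line chr2:215311919-215312058 (plus strand), the RRM1 line chr11:4094545-4094684 (plus strand) and the RRM2 line chr2:10122599-10122738 (plus strand).
PPAT and PAICS, shared interval: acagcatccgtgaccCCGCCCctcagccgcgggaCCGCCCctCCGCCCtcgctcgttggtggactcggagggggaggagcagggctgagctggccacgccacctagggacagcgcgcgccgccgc
GART: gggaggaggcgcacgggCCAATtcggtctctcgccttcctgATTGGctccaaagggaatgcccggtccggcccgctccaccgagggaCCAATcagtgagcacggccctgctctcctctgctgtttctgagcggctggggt
ATIC: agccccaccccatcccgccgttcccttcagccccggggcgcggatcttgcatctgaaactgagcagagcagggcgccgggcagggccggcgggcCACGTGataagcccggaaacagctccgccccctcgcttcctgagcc
RRM1: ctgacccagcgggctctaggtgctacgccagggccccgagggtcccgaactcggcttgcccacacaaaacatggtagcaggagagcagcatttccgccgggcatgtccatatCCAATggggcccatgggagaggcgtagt
RRM2: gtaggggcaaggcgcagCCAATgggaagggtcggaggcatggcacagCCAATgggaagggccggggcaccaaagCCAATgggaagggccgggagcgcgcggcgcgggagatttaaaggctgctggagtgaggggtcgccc

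Windows from 250 bases before to 50 bases after the RefSeq start were given for 34 members, and ADSL and IMPDH2 had none. An E-box lay in 5 of the 34 windows (14.7%), against 7.43% of all 27305 windows and 10.1% of the 10401 windows of detected protein-coding genes. The CCAAT box lay in 10 of 34 (29.4%, against 35.7% of all windows and 36.8% of those of detected protein-coding genes). At least 3 copies were held by 2 members, GART and RRM2, by 3.42% of all windows and by 4.53% of those of detected protein-coding genes. An E2F site (TTTCCCGC or TTTGGCGC) lay in 3 windows, those of PRPS2, TYMS and DCK (8.82%, against 2.31% and 3.6%), a GC box in 23 (67.6%, against 44.6% and 68.2%), and an NRF1 site in none (0%, against 1.36% and 2.24%). Both strands were searched, no motif contains another, and a match describes the letters, not a binding site. The RefSeq window of PAICS lies at another start inside PPAT, so the interval shown stands in the window of PPAT.

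Totals were 25013265, 42610181 and 23868201 counts in replicates 1, 2 and 3, so replicate 2 was the deepest. A gene was called detected with at least 10 counts in every library, which held for 14612 genes (53%) and for 36 of 36 members; the lowest member count was 67. Of all counts, the 36 genes took 0.445%, 0.426% and 0.451% in replicates 1, 2 and 3. The 95% Clopper-Pearson limits were 0.442% and 0.447% for replicate 1, 0.424% and 0.428% for replicate 2, and 0.448% and 0.453% for replicate 3. Levels are given as CPM per kb, that is, CPM (counts relative to effective library size) divided by the exon length in kb, since longer transcripts yield more reads. Against the labelled cell type, counts reached the detection limit for 10 of 10 neuroendocrine markers, 8 of which exceeded the median detected gene, with 1513 to 1539 CPM summed over the list. Of 5 fibroblast markers 1 was detected, below the median gene (0.584 to 1.21 CPM summed), and of 4 endothelial markers 2, both below it (1.17 to 1.87 CPM). Of 5 leukocyte markers 3 were detected (30.2 to 40.3 CPM summed): CD68 lay above the median gene (10.3 ± 1.69 CPM per kb, SD, n = 3; limma adjusted p = 1.2e-04), and 2 lay below it. Of 5 lung epithelial markers, SFTPC, SFTPA1, SCGB1A1 and KRT5 had 0 counts in every library, and FOXJ1, with 352, 369 and 320 counts and no call against the median gene (adjusted p = 0.089), made up the whole sum of 8.63 to 14.2 CPM.

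Most nucleotide synthesis genes were expressed well above the typical gene of these cells. Against the median detected gene (5.58 CPM per kb), 30 of 36 members lay above, 5 below (DHODH, ADSSL1, ADSL, NME2 and TK2), and UMPS could not be separated from it, by a one-sample limma test with Benjamini-Hochberg adjustment over 13539 detected genes and a threshold of 0.05. The same test called 45.3% of all genes above and 45.1% below, against 83.3% and 13.9% of the members. The median distance of the members from the median gene was 1.90 on the log2 scale, against 0.00 over all genes tested. By level, 14 members were in the top 10% of detected genes and 1, IMPDH2, in the top 1%. Members with a direction here kept it under all 12 other settings tried, and where a call was lost the gene is named below with its value. In the plot of levels by role, IMPDH2 stands highest per kb, and low members occur in 5 of the 9 roles.

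**Figure D1:**
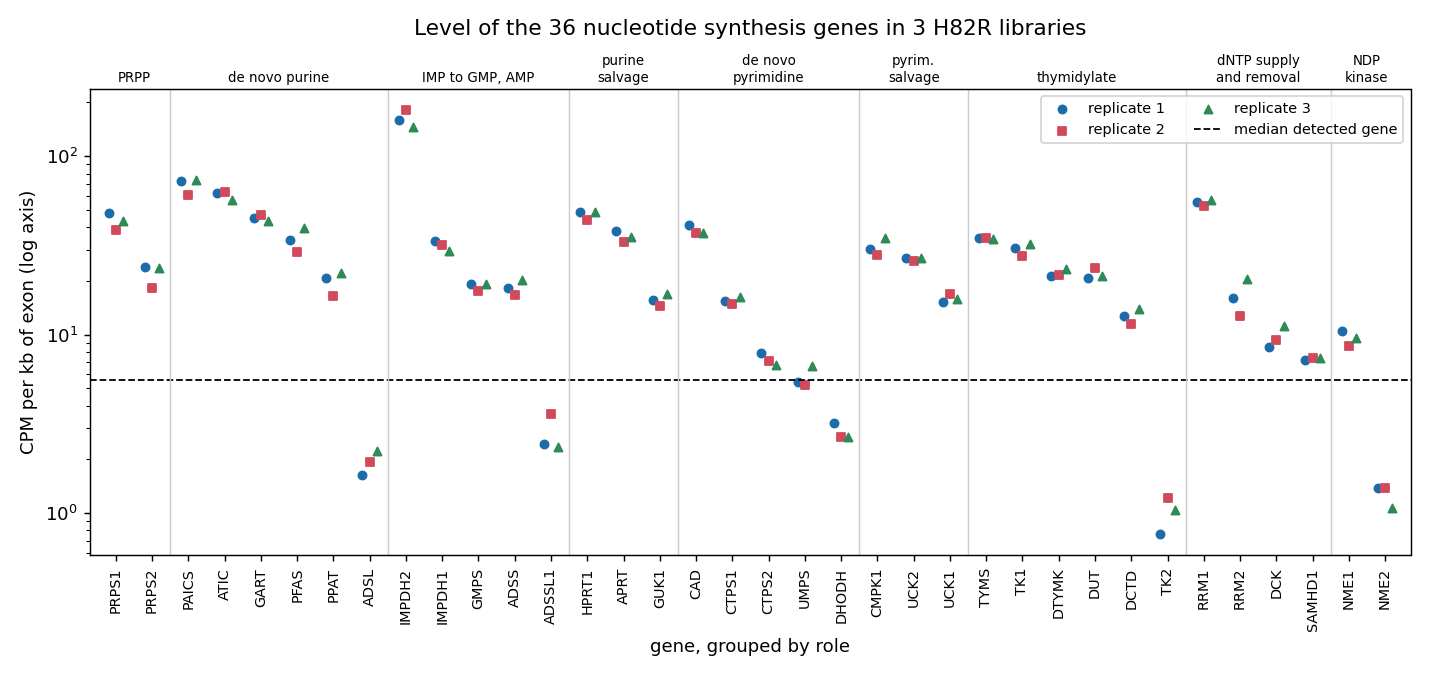
Level of each of the 36 genes (CPM per kb of exon, log axis) in replicates 1, 2 and 3, grouped by role and sorted by mean within a role; the dashed line is the median detected gene at 5.58 CPM per kb. Points of 1 gene lie close together compared with the full range of levels, from IMPDH2 at 147 to 180.5 down to TK2 at 0.764 to 1.22. Genes of similar level overlap, such as PRPS2 at 18.2 to 24.1 and DUT at 20.9 to 23.6.

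PRPP, the activated ribose that both pathways draw on, is made by the synthetases PRPS1 and PRPS2. PRPS1 stood at 48.0, 38.7 and 43.2 CPM per kb in replicates 1, 2 and 3, and PRPS2 at 24.1, 18.2 and 23.6. Both were lowest in replicate 2, and both lay above the median gene, PRPS1 by 2.96 ± 0.08 (SE) on the log2 scale (limma, adjusted p = 7.3e-09) and PRPS2 by 1.97 ± 0.09 (adjusted p = 1.7e-07). PRPS1 exceeded PRPS2 by 2.0, 2.13 and 1.83 times per kb.

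Of the 6 enzymes that carry PRPP to IMP, 5 lay above the median gene and 4 of these were in the top 10% of detected genes. PAICS, a bifunctional enzyme of the middle steps, was the highest at 72.3, 60.8 and 73.7 CPM per kb (3.63 ± 0.08 above the median gene, limma adjusted p = 2.6e-09). ATIC, which closes the purine ring, stood at 62.0, 63.1 and 57.0 CPM per kb, and GART, which carries 3 activities of the pathway, at 45.1, 47.0 and 43.2. These 3 multifunctional enzymes kept their order in every library except that ATIC exceeded PAICS in replicate 2; with the longest transcript as length, ATIC (3.78) and GART (3.69) lay farther above the median gene than PAICS (3.39) on the log2 scale. PFAS, which acts between the steps of GART, varied more, at 34.1, 29.2 and 39.6 CPM per kb, and PPAT, the amidotransferase of the committed first step, stood at 20.9, 16.4 and 22.1 CPM per kb. PFAS, PPAT and PAICS all had replicate 2 lowest and replicate 3 highest.

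PPAT and PAICS lie head to head on chromosome 4, PPAT from 56393362 to 56435615 on the minus strand and PAICS from 56435741 to 56464579 on the plus strand (GENCODE 29, GRCh38), with starts 126 bases apart. The interval between them holds 3 GC boxes and no CCAAT box, E-box or E2F site. PAICS was 3.46, 3.71 and 3.33 times as high as PPAT per kb, a mean ratio of 3.50 with a log2 SD of 0.08 between libraries. The ratio moved by less than either gene did, whose highest over lowest library was 1.21 for PAICS and 1.35 for PPAT. A ratio this steady was not particular to the shared interval. HPRT1 over APRT and CAD over DHODH, pairs on different chromosomes, had log2 SDs of 0.05 and 0.07, and all other pairs had larger ones. In the reference annotation 7 pseudogenes carry the name of PAICS and 2 that of PPAT, and how the counting treated reads that fit both a gene and its copies is not given in the sources used here.

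ADSL, the lyase that acts both before IMP and on the branch to AMP, was the exception among these 6 genes. It had 290, 585 and 379 counts, or 1.64, 1.93 and 2.22 CPM per kb, which placed it 1.53 ± 0.12 below the median gene on the log2 scale (limma, adjusted p = 3.8e-06). In the reference annotation 68.8% of its coding bases on chromosome 22 are also exons of another gene on the same strand, and reads in such bases can be left out or given to the other gene, so its level is uncertain. The same holds for RRM2 (78.5% of coding bases shared), NME1 (75.6%) and NME2 (100%). For no other member was the share 50% or more.

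At the branch point after IMP, the GMP arm held the highest of the 36 genes per kb; without length PAICS was higher (4.16 above the median gene on the log2 scale, against 3.95 for IMPDH2). IMPDH2, the isoform of IMP dehydrogenase that proliferating cells use, stood at 159, 180.5 and 147 CPM per kb, the 123rd highest of 13539 detected genes and 4.86 ± 0.08 above the median gene (limma, adjusted p = 1.1e-09). Replicate 2 was its highest library and the spread was 1.23 times. IMPDH1, the isoform also known from the retina, reached 33.6, 32.0 and 29.4 CPM per kb, and the ratio of IMPDH2 to IMPDH1 was 4.73, 5.65 and 4.99. GMPS, which makes GMP from the product of both, stood at 19.3, 17.5 and 19.2 CPM per kb. IMPDH2 lies on chromosome 3 from 49024325 to 49029408 and IMPDH1, for which 7 pseudogenes are annotated, on chromosome 7 from 128392277 to 128410252.

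In the AMP arm the 2 adenylosuccinate synthases differed. ADSS, the widely expressed form, stood at 18.2, 16.6 and 20.2 CPM per kb, 1.72 ± 0.08 above the median gene (limma, adjusted p = 1.4e-07). ADSSL1, the muscle form, stood at 2.43, 3.59 and 2.36 CPM per kb, 1.01 ± 0.14 below it (adjusted p = 1.7e-04). Replicate 2 was the lowest library for ADSS and the highest for ADSSL1, so their ratio was 7.47, 4.62 and 8.56. Its mean of 6.66 became 4.23 without length. The call of ADSSL1 was lost when length was taken from the longest transcript (adjusted p = 0.0677) and when genes with at least 1 count in any library were kept (adjusted p = 0.54).

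The purine salvage genes among the members, HPRT1 and APRT, and the GMP kinase GUK1 were all above the median gene. Other purine salvage genes were mixed, as given further below. HPRT1, which recycles hypoxanthine and guanine, stood at 48.6, 44.1 and 48.8 CPM per kb (3.09 ± 0.07 above, limma adjusted p = 3.7e-09), and APRT, which recycles adenine, at 37.9, 33.2 and 35.3 (2.67 ± 0.07 above). HPRT1 was 1.28, 1.33 and 1.38 times APRT, but with the longest transcript as length the mean log2 ratio of 0.41 became -0.31, so their order depends on the length used. GUK1, the kinase that makes GDP from GMP, stood at 15.6, 14.4 and 16.9 CPM per kb.

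De novo pyrimidine synthesis was uneven along its course: 3 of its 5 genes exceeded the median gene, DHODH fell short of it and UMPS did neither. CAD, the trifunctional protein of the first steps, stood at 41.1, 37.4 and 37.2 CPM per kb (2.79 ± 0.07 above, limma adjusted p = 5.0e-09). DHODH, the mitochondrial dehydrogenase of the next step, stood at 3.21, 2.68 and 2.68 CPM per kb, 0.96 ± 0.10 below the median gene (adjusted p = 2.7e-05). UMPS, which completes UMP, had 5.43, 5.23 and 6.67 CPM per kb, a level that the test could not separate from the median gene (0.05 ± 0.09, adjusted p = 0.607). CAD thus exceeded DHODH by 12.8, 13.9 and 13.8 times and UMPS by 7.58, 7.15 and 5.57 times, with both partners lower in every library.

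The place of UMPS depended on the length used and on the filter. Without division by length UMPS lay 0.59 above the median gene (limma, adjusted p = 3.4e-04), with the longest transcript as length 0.23 below it (-0.23, adjusted p = 0.0406), and with genes of at least 1 count in any library kept 0.98 above it (adjusted p = 1.8e-06). With that last filter the test also failed to separate DHODH from the median gene (-0.03, adjusted p = 0.753), whereas both other lengths left DHODH below it. Of the CTP synthases, which turn UTP into CTP, CTPS1, the form that proliferating lymphocytes depend on, stood at 15.5, 14.8 and 16.3 CPM per kb and CTPS2 at 7.87, 7.16 and 6.75. CTPS1 was 1.96, 2.06 and 2.41 times CTPS2 per kb, with a mean of 2.14 that became 4.47 without length. CTPS2 lay 0.39 ± 0.08 above the median gene (adjusted p = 0.0024), a call lost when at least 1 CPM in every library was required (adjusted p = 0.076).

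The uridine-cytidine kinases UCK1 and UCK2 and the kinase CMPK1 lay above the median gene. Other pyrimidine salvage genes were mixed, as given further below, and the thymidine kinase TK2 lay below the median gene. UCK2, the uridine-cytidine kinase often raised in tumours, stood at 27.0, 26.0 and 26.8 CPM per kb and UCK1, its more widely expressed relative, at 15.2, 16.8 and 15.8, with ratios of 1.77, 1.55 and 1.70 and a mean of 1.67 that became 4.39 without length. Neither differed much between libraries, and no spread beyond counting error was called for UCK2. CMPK1, which phosphorylates UMP and CMP, stood at 30.4, 27.9 and 34.8 CPM per kb.

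In thymidylate synthesis 5 of 6 genes lay above the median gene. TYMS, thymidylate synthase, was nearly constant at 34.7, 35.0 and 34.2 CPM per kb (2.64 ± 0.07 above, limma adjusted p = 6.6e-09), though 46.6% of its exon bases face exons of genes on the opposite strand, ENOSF1 and TYMSOS, and without a stated strand setting their reads cannot be told apart. TK1, the cytosolic thymidine kinase of dividing cells, stood at 30.6, 27.4 and 32.4 CPM per kb. TYMS exceeded TK1 by 1.14, 1.28 and 1.05 times, and in replicate 3 the exact binomial interval, 0.985 to 1.13, included 1. DTYMK, which phosphorylates dTMP, DUT, which removes dUTP and yields dUMP, and DCTD, which makes dUMP from dCMP, averaged 22.1 ± 1.21, 21.9 ± 1.46 and 12.7 ± 1.16 CPM per kb (SD, n = 3), with 8 pseudogenes annotated for DUT.

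TK2, the mitochondrial thymidine kinase, was the lowest of the 36 genes per kb; without length NME2 was lower (-3.09 on the log2 scale, against -2.01 for TK2). TK2 had 136, 374 and 178 counts, or 0.764, 1.22 and 1.04 CPM per kb, and lay 2.48 ± 0.16 below the median gene (limma, adjusted p = 1.1e-06). TK1 exceeded it by 40.0, 22.5 and 31.3 times, the widest gap per kb of the 15 pairs compared. Without length its mean ratio was 7.89, against 30.4 per kb, and both CAD over DHODH (16.5) and NME1 over NME2 (9.78) were wider. The per-kb intervals for counting error of replicates 1 and 2 (33.5 to 48.1 and 20.1 to 25.1) did not overlap. On chromosome 16, 21.9% of the exon bases of TK2 face noncoding genes on the other strand.

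The 2 subunits of ribonucleotide reductase differed in level and in steadiness. RRM1, the large catalytic and regulatory subunit, stood at 55.2, 52.6 and 57.0 CPM per kb (3.31 ± 0.06 above the median gene, limma adjusted p = 1.8e-09), with a highest over lowest library of 1.08. RRM2, the small radical-bearing subunit whose transcript is made in S phase, stood at 16.0, 12.7 and 20.5 CPM per kb (1.54 ± 0.12 above, adjusted p = 3.0e-06), a spread of 1.61 times and the widest of all members. RRM2 was therefore 0.290, 0.242 and 0.360 times RRM1, with the reservation on shared coding bases given above. RRM2B, the p53-induced small subunit that can take the place of RRM2, stood at 7.74, 6.28 and 8.91 CPM per kb, and RRM2 exceeded it by 2.07, 2.03 and 2.30 times. RRM2 and RRM2B had replicate 2 lowest and replicate 3 highest. In the stretches printed above, RRM2 holds CCAAT boxes 123, 93 and 66 bases before its start, and RRM1 holds 1, 28 bases before.

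DCK, the kinase that salvages deoxycytidine and also activates cytarabine and gemcitabine, stood at 8.58, 9.33 and 11.2 CPM per kb. SAMHD1, the hydrolase that breaks deoxynucleotides down, stood at 7.24, 7.41 and 7.39 and differed little between libraries, by 1.02 times. Per kb DCK was 1.19, 1.26 and 1.52 times SAMHD1, but without length the mean log2 ratio was -1.41 and with the longest transcript -0.39, against 0.39 here, so the order of the 2 genes depends on the length used. Both lay above the median gene (0.80 ± 0.10, limma adjusted p = 7.4e-05, for DCK and 0.41 ± 0.07, adjusted p = 5.2e-04, for SAMHD1); the call of DCK was lost without length (adjusted p = 0.322).

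The nucleoside diphosphate kinase genes NME1 and NME2 are neighbours on chromosome 17 and make nucleoside triphosphates from diphosphates. NME1 stood at 10.4, 8.59 and 9.54 CPM per kb (0.78 ± 0.09 above the median gene, limma adjusted p = 4.6e-05; without length adjusted p = 0.0891) and NME2 at 1.39, 1.38 and 1.06 (2.10 ± 0.16 below it, -2.10, adjusted p = 3.2e-06). NME1 was 7.50, 6.23 and 8.98 times NME2 per kb. The readthrough gene NME1-NME2, which holds all coding bases of NME2 and 75.6% of those of NME1, has a row of its own in the table with 0 counts in every library, so the counts of both genes, and most of all NME2, may leave out reads that fit more than 1 of the 3 names.

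Across the 15 pairs, the first gene was higher in every library for 14 and lower in every library for RRM2 over RRM1. The pairs were chosen with earlier results of these data known, and which gene is named first is arbitrary. The count of 14 therefore describes the pairs as written. Adjusted over the 15 pairs, the two-sided exact sign-flip test gave p = 0.25 for each, the smallest that 3 libraries allow, so no ratio could pass 0.05. In the plot of pair ratios most intervals for counting error are narrow beside the distance from 1.

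**Figure D2:**
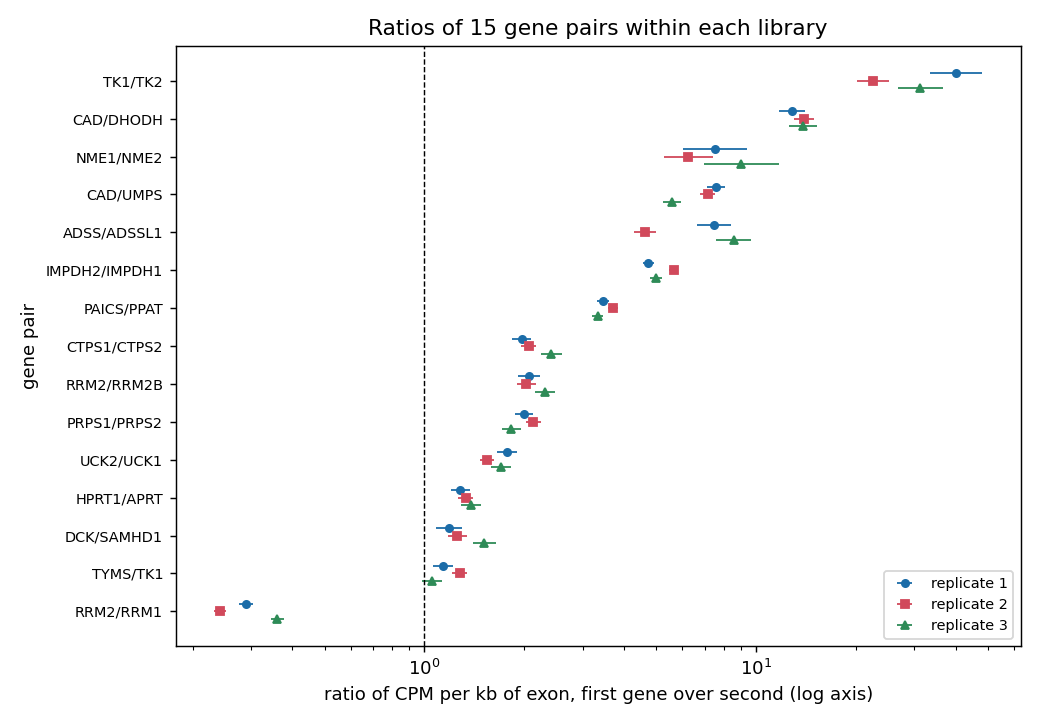
Ratio of CPM per kb of exon, first gene over second (log axis), for 15 gene pairs in replicates 1, 2 and 3; bars are 95% exact binomial intervals and cover counting error alone, and the dashed line marks equal levels. On this scale TK1/TK2 lies farthest to the right at 22.5 to 40.0, and RRM2/RRM1 is the 1 pair left of equality at 0.242 to 0.360.

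Between libraries the members moved little but measurably. A chi-square test of homogeneity against effective library size, adjusted over 14612 detected genes, found spread beyond counting error in 32 of 36 members (88.9%), against 68.7% of all detected genes and 76.7% of detected genes with a mean count in the members' range. UCK2 (adjusted p = 0.135), TYMS (0.708), SAMHD1 (0.706) and NME2 (0.197) did not pass. Without replicate 2 the count was 19, without replicate 1 it was 25 and without replicate 3 it was 26. The share of all detected genes in these settings is not given here. Replicate 2 was the deepest library, so leaving it out removes the most counts. The part of depth in this fall, and whether the fall is particular to the members, was not tested. The size of the spread was modest: the highest library exceeded the lowest by a median of 1.19 times over members, against 1.25 over all detected genes, and by more than 1.5 times in 3 members, RRM2 (1.61), TK2 (1.60) and ADSSL1 (1.53). The median edgeR coefficient of variation was 12.0% for members and 14.2% for all detected genes. None of these comparisons was matched for count. The members' range of mean counts took in 11462 of the 14612 detected genes, and the median member had 2402 counts. Larger counts make the chi-square test more sensitive, so 88.9% against 76.7% is a description only.

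Of the 32 members with spread, 19 were lowest in replicate 2 (59.4%), 6 in replicate 1 and 7 in replicate 3. Among all 10044 genes with spread, 39.2% were lowest in replicate 2, 28.6% in replicate 1 and 32.2% in replicate 3. Of the same 32 members, 9 were highest in replicate 1, 7 in replicate 2 and 16 in replicate 3 (50%), against 29.7%, 37.5% and 32.8% of all genes with spread. Members lowest in replicate 2 included PRPS1, PRPS2, PPAT, PFAS, PAICS, RRM2, RRM1, TK1 and both purine salvage genes, while IMPDH2, ATIC, GART, DUT, TK2, UCK1 and ADSSL1 were highest there. In bulk RNA, fewer cells expressing a gene and less of its RNA per cell cannot be told apart. Replicate 2 was also the deepest library; the part of depth in these differences was not tested. The plot of library departures shows the opposite positions of replicate 2 for RRM2 and ADSSL1.

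**Figure D3:**
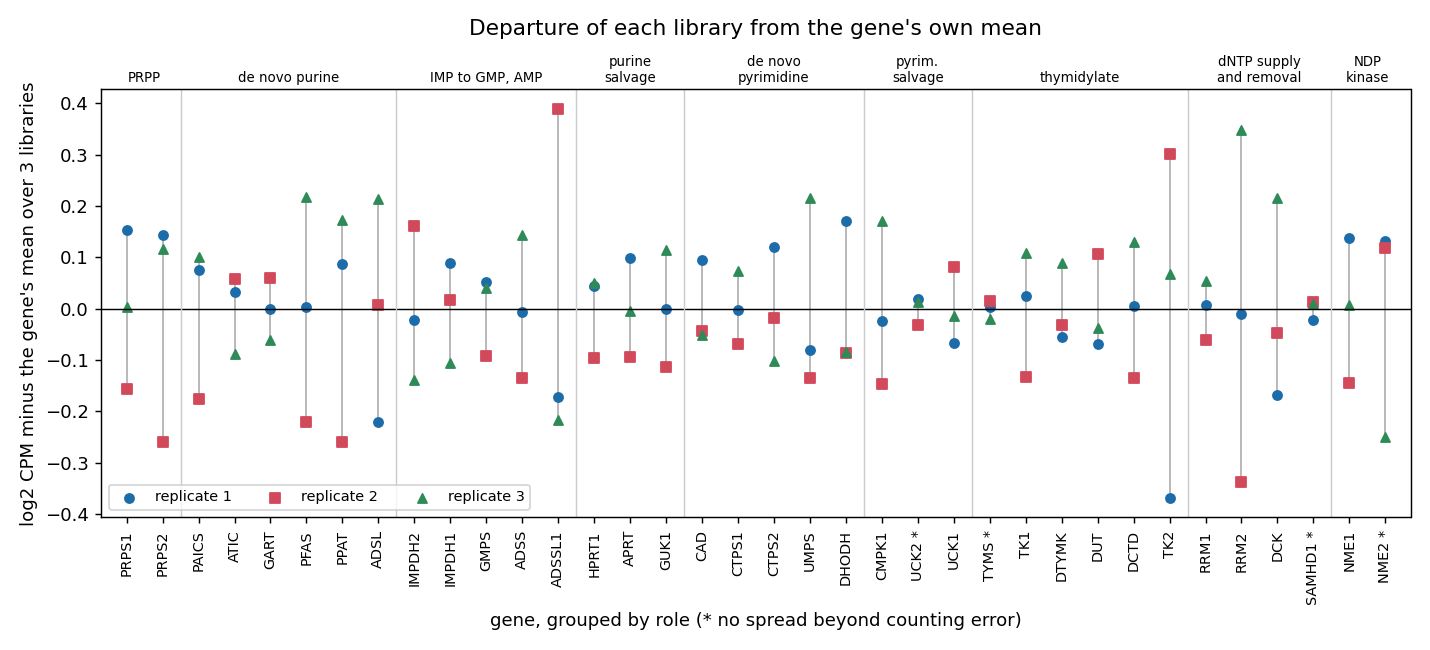
Log2 CPM of each library minus the gene's mean over the 3 libraries, for the 36 genes grouped by role; vertical lines span the libraries and a star marks the 4 genes without spread beyond counting error. Replicate 2 lies lowest for 19 of the 32 genes with spread, and RRM2, TK2 and ADSSL1 have the longest lines.

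Other genes of nucleotide metabolism were read from 5 lists of 65 genes, of which 53 were detected, 31 lay above the median gene and 18 below. Over the 13539 detected genes with a known length the same test called 45.3% above and 45.1% below, and 53% of all names were detected. The counts of each list below are out of all its genes, those not detected included. The shares above and below are of detected genes alone, so the bases differ. Their median distance was 0.58 on the log2 scale, against 1.90 for the 36 synthesis genes and 0.00 for all genes tested. The lowest list was pyrimidine breakdown and nucleoside salvage, with 4 of 13 genes above, 6 below, 1 not distinguished and 2 not detected, and a median of -1.27 over the 11 detected. It was led by the nucleotidase NT5C (27.9 ± 1.11 CPM per kb, with 60.7% of its exon bases facing exons on the other strand), the uridine kinase-like UCKL1 (19.0 ± 1.20) and the pyrophosphatase DCTPP1 (14.4 ± 1.75, SD, n = 3, with 42.1% of exon bases so placed), and its lowest detected gene was UPB1, the last enzyme of uracil breakdown (0.528 ± 0.248).

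Purine breakdown and nucleoside salvage held 8 of 17 genes above, 3 below, 2 not distinguished and 4 not detected, with a median of 0.84. DGUOK, the mitochondrial deoxyguanosine kinase (32.9 ± 2.78 CPM per kb), ITPA, which clears inosine triphosphate (22.6 ± 1.60), and the AMP deaminase AMPD2 (19.6 ± 0.392) were highest and LACC1, a purine nucleoside enzyme of macrophages, lowest (0.362 ± 0.104, SD, n = 3). Among 19 nucleotide kinases and reductase partners 9 lay above and 6 below and 4 were not detected (median 0.52). NME4, a mitochondrial nucleoside diphosphate kinase, averaged 15.9 ± 2.19 CPM per kb, AK4, a mitochondrial adenylate kinase, 15.7 ± 0.864, and AK9, the lowest detected, 0.351 ± 0.0564 (SD, n = 3), and PRPS1L1, the testis PRPP synthetase, had 0 counts in every library. Of 7 nucleoside transporters, 3 lay above, 2 below and 2 were not detected (median 1.75): the equilibrative transporters SLC29A1 (39.9 ± 1.55 CPM per kb), SLC29A2 (19.6 ± 0.958) and SLC29A4 (19.1 ± 4.75) were highest and the concentrative transporter SLC28A3 was the lowest detected, with 22, 184 and 28 counts.

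Folate enzymes, which supply the carbon units for the purine ring and for thymidylate, lay above the median gene in 7 of 9 cases, with 1 below and 1 not distinguished and a median of 2.15. MTHFD2, the mitochondrial dehydrogenase, stood at 39.8, 71.2 and 56.2 CPM per kb (33.2% of its exon bases face exons on the other strand) and SHMT2, the mitochondrial serine hydroxymethyltransferase, at 35.8, 58.3 and 39.9. Both were highest in replicate 2, where PPAT, PFAS and PAICS were lowest. Neither group was uniform. ATIC and GART were highest in replicate 2 too, and in the folate list SHMT1 and SLC19A1 were lowest there. The plot of gene lists shows the 36 synthesis genes beside the 5 lists.

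**Figure D4:**
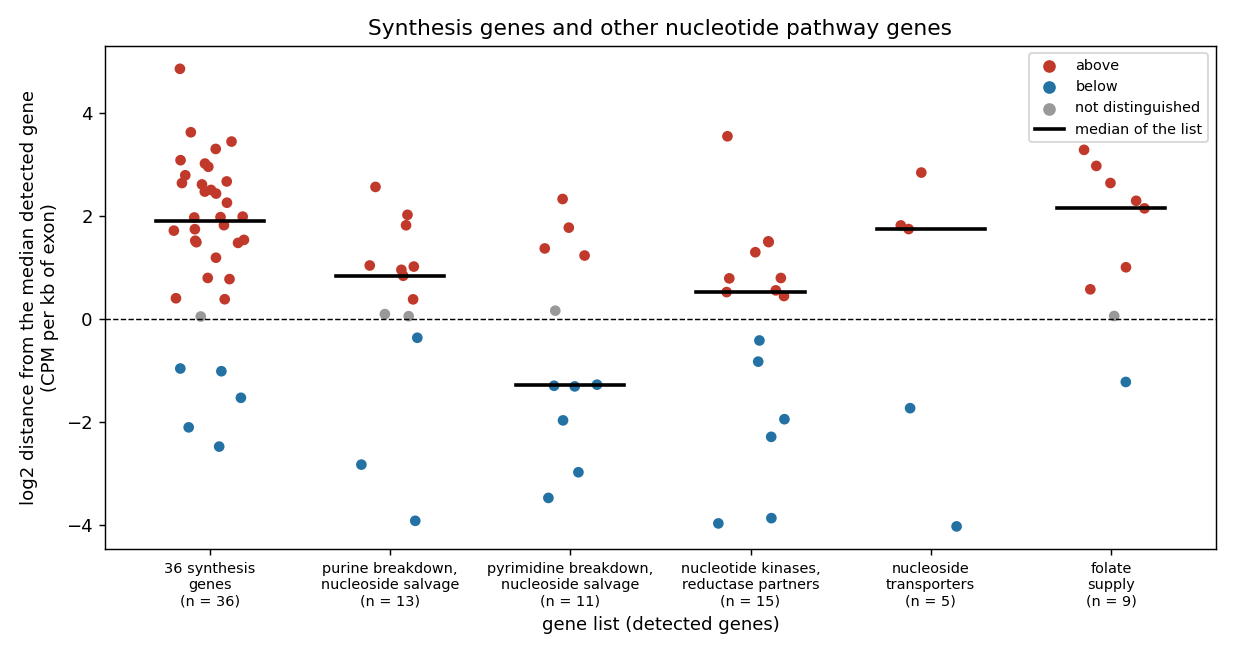
Log2 distance of each detected gene from the median detected gene (CPM per kb of exon) for the 36 synthesis genes and 5 lists of other nucleotide pathway genes; colour gives the limma call and black bars the median of each list. The synthesis genes have a median of 1.90, the folate list 2.15 and the pyrimidine breakdown and salvage list -1.27.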

How the data were processed

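The authors deposited unnormalized read counts, 1 row per gene symbol and 1 column for each of the 3 libraries. Per the submitters' processing notes, STAR 2.6.1b and hg38 were used, in roles that are not described. The counting program, its annotation, its strand setting and any filters were not given in the sources used here. Total RNA was extracted with TRIzol, per the labels' protocols. Of 27587 names, 13 had become dates and were left out (0.0665%, 0.0707% and 0.0736% of counts), which leaves 27574.

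Effective library sizes were totals times TMM factors (edgeR 4.0.16). Exon length, the union of exons in GENCODE 29 (GRCh38, the assembly of hg38), was known for 92.7% of detected genes. Levels were tested with limma 3.58.1 (R 4.3.3): log2 CPM per kb with a prior count of 2, minus the library's median over detected genes, two-sided, with a mean-dependent prior variance. With 1 group no contrast exists, so edgeR's quasi-likelihood and DESeq2 tests were not run. Pair ratios carry Clopper-Pearson intervals, which cover counting error only, since the labels mention no molecular identifiers and PCR copies are not independent molecules. Levels per length replace levels per gene because genes are compared with each other. The tests were tested on simulated data.

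The 36 genes, the lists, pairs and motifs were chosen with earlier results of these data known. All members are named; of each other list, the 3 highest, the lowest detected and those with 0 counts in all libraries, apart from some that are not reported here. RRM2B is named for its pair. Alternatives were leaving out each library, 2 other filters (at least 1 CPM in every library, or at least 1 count in any), scaling by totals or by size factors of DESeq2 1.42.0, limma-voom, a prior count of 0.5, a threshold of 0.01, no length, the longest transcript, and protein-coding genes only; leaving out the 4 genes with at least 50% of coding bases shared was chosen after seeing the data.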

Additional observations from a re-analysis of the deposited data

How the results depend on the processing

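Among the 36 members, the calls of all 36 were the same without replicate 1, 2 or 3, with protein-coding genes only, limma-voom, a prior count of 0.5, and scaling by totals or DESeq2 size factors. The count above the median gene stayed between 28 and 31 under every alternative. The count below it, 5, became 3 when genes with at least 1 count in any library were kept, a filter that lowered the median gene and moved the members' distances up by 0.92 on the log2 scale, and 3 when the 4 genes with shared coding bases were left out, a setting chosen after seeing the data that removes ADSL and NME2. Requiring 1 CPM in every library shifted every member's distance by -0.21. Omitting length shifted members both ways, 16 up and 20 down, from -1.68 to 1.14 with a median of -0.36. UMPS turned to -0.23 with the longest transcript. The mean log2 ratio of HPRT1 to APRT turned to -0.31 with the longest transcript, and that of DCK to SAMHD1 to -0.39 with it and to -1.41 without length; 14 pairs had the first gene higher in every library, 13 without length and 12 with the longest transcript. Without length the mean ratio of 4 further pairs moved by more than 1.5 times: TK1 to TK2 became 7.89, UCK2 to UCK1 4.39, CTPS1 to CTPS2 4.47 and ADSS to ADSSL1 4.23. With the longest transcript the mean log2 ratio of CTPS1 to CTPS2 became 1.86 and that of ADSS to ADSSL1 1.98. Members with spread beyond counting error numbered 19 to 26 when 1 library was left out, against 32. The share of all detected genes in these settings is not given here. Of the other pathway genes, 29 to 37 lay above and 16 to 25 below under the alternatives. No paired analysis was possible because the labels form 1 group. With 3 libraries, the spread estimates are imprecise.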
